A study of Mus musculus with 797 samples.

Results

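The cytosolic ribosomal protein genes encode the protein parts of the ribosome outside mitochondria, in its small subunit (Rps genes and Rpsa) and its large subunit (Rpl genes and the stalk genes Rplp0, Rplp1 and Rplp2). Members were chosen by symbol: names beginning Rpl or Rps followed by a digit, and Rplp0, Rplp1, Rplp2 and Rpsa, without pseudogene names ending in -ps and without the Rps6k kinases. The rule gave 86 of 32285 genes, 33 named for the small and 52 for the large subunit, plus Rps19bp1, which encodes a binding partner of a ribosomal protein and met the rule only by its name.

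The measurements were read counts in 797 single nuclei sorted for H2B-SYFP2, a histone-tagged yellow fluorescent reporter of the nucleus, from C57Bl/6J mice. Each mouse had received 1 PHP.eB adeno-associated virus at 5e11 vector genomes, injected in young adulthood, and nuclei were sorted 3 to 4 weeks later. There were 20 vector labels of 39 or 40 nuclei: 16 AiE enhancers (AiE0078h, AiE0140h, AiE0387m, AiE0390m, AiE0391h, AiE0401h, AiE0410m, AiE0445h_3xC2, AiE0447h, AiE0450h, AiE0452h, AiE0475m, AiE0600m, AiE0682h, AiE0743m_3xC2 and AiE0779m), and the elements CMV, hSyn1, hI56i and DLX2.0. No animal is named in the labels, so a vector label was taken as 1 sample. Without a block, p-values measure the spread between vector labels, which differ in the element they carry. Where the label is a block, p-values measure how much the difference within a label varies from label to label. Which nuclei entered the sort depended on the element, because the reporter was the gate.

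Nuclei with at least 50000 gene reads and at least 1000 genes were kept, 781 in all, with a median of 292895 reads. They fell into 3 library sets by the leading part of the library name: set B (178 nuclei kept), set A (516) and set C (87); what sets these names apart is not given in the sources used here. A nucleus was called mt-rich when at least 1% of its gene reads came from the 13 protein-coding genes of the mitochondrial genome, and mt-poor otherwise. The 78 mt-rich nuclei were all in set B, and 100 nuclei of set B, all of set A and all of set C were mt-poor. A nucleus was called glutamatergic when Slc17a7, the vesicular glutamate transporter of cortical-type neurons, reached 10 CPM (counts scaled to a common total of gene reads) and the GABA-synthesis genes Gad1 and Gad2 together did not, and GABAergic in the reverse case. All 797 nuclei are labelled striatum, although the study's design also names sorts from motor and visual cortex. Of 9 markers of spiny projection neurons, the main neurons of the striatum, at least 1 was read in 42.2% of nuclei of set A. In that set Tac1 was read in 13.8%, Rgs9 in 8.91%, Adcy5 in 7.75%, Ppp1r1b in 7.36%, Penk in 6.98%, Drd1 in 5.43% and Drd2 in 0.194%. Adora2a and Isl1 were at 0 in every set. Slc17a7 was read in 55.8% of nuclei of set A.

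Ribosomal proteins are made in near-equal amounts, and their genes are among the most abundantly transcribed of any cell. Their messenger RNAs leave the nucleus and stay on ribosomes for long, so most of these molecules are normally found in the cytoplasm. In mammals many of them begin with a tract of pyrimidines, the 5′ terminal oligopyrimidine (TOP) tract, through which the growth-signalling kinase mTOR regulates their translation. The large-subunit stalk, built from Rplp0 with Rplp1 and Rplp2, binds the elongation factors during translation.

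The bases around the annotated start are shown for the members read in the largest shares of nuclei and for the stalk genes Rplp0 and Rplp2, because the tract sits at that start. Each window runs from 30 bases before to 15 bases from the start on, 5′ to 3′ on the gene's strand, from RefSeq on GRCm38.p6. Capitals mark a C followed by at least 4 bases that are C or T, beginning within 5 bases of the start; windows without capitals held no such run.
Rpl41: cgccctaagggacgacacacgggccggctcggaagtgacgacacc
Rpl6: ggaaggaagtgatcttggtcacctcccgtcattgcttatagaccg
Rps13: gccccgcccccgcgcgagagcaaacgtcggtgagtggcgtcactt
Rpl38: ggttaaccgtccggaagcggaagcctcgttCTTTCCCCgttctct
Rpl13: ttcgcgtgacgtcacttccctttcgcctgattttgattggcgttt
Rplp0: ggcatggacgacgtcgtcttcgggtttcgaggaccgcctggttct
Rplp2: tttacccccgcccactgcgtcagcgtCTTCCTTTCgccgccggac

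These windows lie at chr10:128549154-128549198 on the minus strand for Rpl41, chr5:121204471-121204515 on the plus strand for Rpl6, chr7:116334176-116334220 on the minus strand for Rps13, chr11:114668550-114668594 on the plus strand for Rpl38, chr8:123102320-123102364 on the plus strand for Rpl13, chr5:115559437-115559481 on the plus strand for Rplp0 and chr7:141447621-141447665 on the plus strand for Rplp2. Of the 66 members matched in the RefSeq table, 30 held the run, or 45.5%, against 5718 of all 27025 genes in that table, or 21.2%. The search was made on the gene's own strand, and the absence of a run says only that these letters are not at this annotated start. Rpl38 had 8 bases in the run and Rplp2 had 9, and both genes are described with their reads below.

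Reads of these genes can be shared with other loci. Over the 86 members, a median of 46.0% of the 50-base stretches of the longest coding transcript in GENCODE M21 also occurred in a transcript of another gene, and for 38 members more than 50% did. A member shared such stretches with a median of 8 annotated pseudogenes, and Rpl7a with 120. How the authors counted such reads is not given in the sources used here, so levels of single members are uncertain by that much. Rps27rt, a single-exon copy of Rps27 inside Osbpl10, had 91.1% of its stretches in common with other genes, and its reads cannot be told from those of Rps27. The share was 0% for, among others, Rpl3l, Rpl39l and Rps19bp1. In addition, 23 members overlap another gene of the table, and 30 members hold small nucleolar RNA genes, 58 in all, in their introns or exons.

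Outside the mt-rich nuclei, most ribosomal protein genes were read in a minority of nuclei. Rpl41 and Rpl6 were read in over 50% of nuclei in set A, in set C and in the mt-poor nuclei of set B, and Rps27rt in over 50% of the last. In set A a nucleus had a read from a median of 23 of the 86 members, with a range of 6 to 43 and an SD of 6.38 over 516 nuclei, and the members together took a median of 0.350% of reads (SD 0.112). In set C the median was 22 members (range 11 to 43) and 0.330% of reads (SD 0.116) over 87 nuclei. The mt-poor nuclei of set B had a median of 22 members (range 9 to 83) and 0.321% of reads (SD 0.236) over 100 nuclei. Across the 86 members, the share of nuclei with a read in set A and in set C had a Spearman rho of 0.84, and set A and the mt-poor nuclei of set B had one of 0.87; these points are genes, not independent replicates.

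Over all 781 nuclei the member read most often was Rpl41, which encodes a very short basic protein of the large subunit, in 67.6% of nuclei (95% exact Clopper-Pearson interval, 64.2 to 70.9%). Rpl6, a large-subunit gene, followed in 62.7% (59.2 to 66.1%). Rps13, a small-subunit gene, was read in 47.6% (44.1 to 51.2%), Rpl38 in 46.1% (42.6 to 49.7%) and Rpl13 in 45.1% (41.5 to 48.6%). The intervals of Rpl41 and Rpl6 overlapped each other but no interval of the other 84 members, while those of Rps13, Rpl38 and Rpl13 overlapped one another. These intervals cover counting error only, and the reads carry no molecular identifiers.

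At the other end, Rpl10l and Rpl39l, paralogs of Rpl10 and Rpl39 known for expression in the testis, had a read in 0 of 781 nuclei, a count that allows up to 0.384% of nuclei. Rpl3l, a paralog of Rpl3 known from striated muscle, had a read in 1 nucleus. Next came Rps27l in 16.6% of nuclei (14.1 to 19.4%), a paralog of Rps27 regulated by p53, and Rps19bp1 in 17.2% (14.6 to 19.99%). The intervals of both overlapped those of the canonical members Rpl36a (18.3%), Rpl23a (18.7%) and Rps20 (19.8%).

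Paralogs did not stand below their canonical partners throughout. Rpl22l1 was read in 39.1% of nuclei, against 22.2% for Rpl22, the gene it resembles; per kilobase of annotated exon, the summed level of Rpl22l1 in set A was 24.9 CPM and that of Rpl22 was 8.17 CPM. Rpl36al had 15.8 CPM per kilobase in set A, against 8.25 for Rpl36a. Rps27l had 30.5 CPM per kilobase, against 47.2 for Rps27, and Rpl7l1 had 11.2, against 25.5 for Rpl7. The share of 50-base stretches in common with other genes was 24.9% for Rpl36al and 85.5% for Rpl36a. It was 65.6% for Rpl22l1 and 5.19% for Rpl22, 13.7% for Rps27l and 63.1% for Rps27, and 9.19% for Rpl7l1 and 53.3% for Rpl7. The part of this in the levels was not tested. Between genes, the summed level per kilobase in set A was led by Rpl41 at 108 CPM, Rpl36 at 97.8, Rps15 at 89.5 and Rpl4 at 86.3. Exon lengths count every annotated isoform, so a gene with a retained-intron isoform, such as the single exon block of 2691 bases annotated for Rps13, is set lower on this scale.

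The mt-rich nuclei of set B held reads from nearly the whole module. A median of 79 members was read in each of the 78 mt-rich nuclei (range 18 to 83, SD 15.1), against 22 in the 100 mt-poor nuclei of the same set (range 9 to 83, SD 14.1). The members took a median of 1.01% of reads in mt-rich nuclei (SD 0.312), against 0.321% in mt-poor nuclei. The small-subunit genes made up a median of 0.412% of reads in mt-rich nuclei and 0.115% in mt-poor nuclei, and the large-subunit genes 0.584% and 0.196%. After thinning every nucleus to 100000 reads, the medians were 76 members in mt-rich and 21 in mt-poor nuclei.

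**Figure D1:**
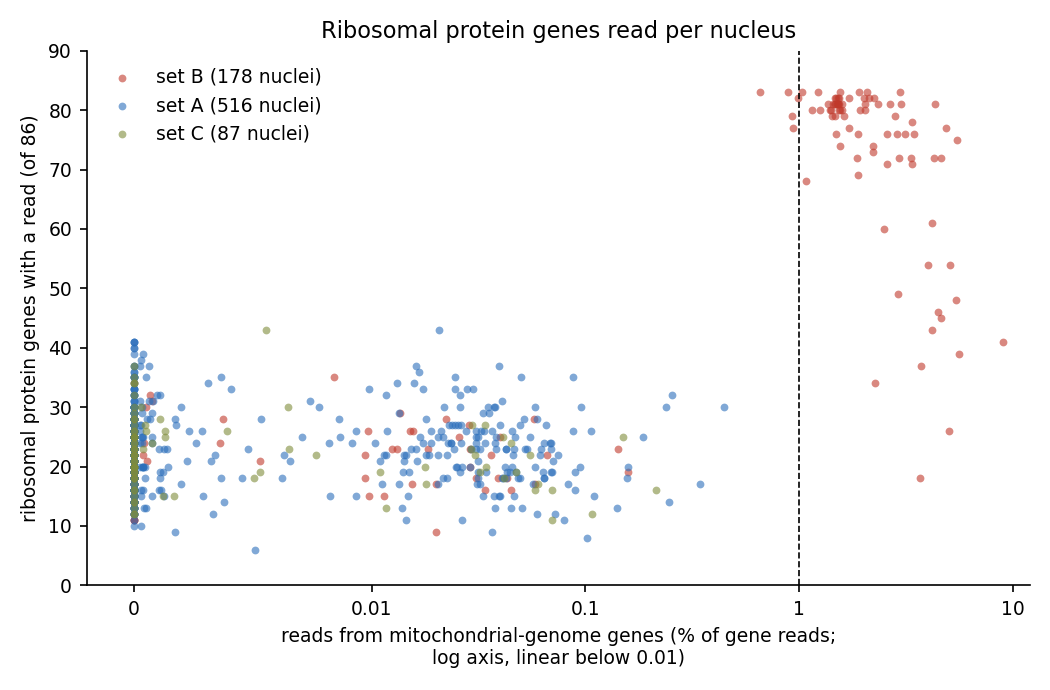
Each point is 1 nucleus; the x axis is the share of its gene reads from mitochondrial-genome genes (%, log axis that is linear below 0.01), the y axis the number of the 86 ribosomal protein genes with a read, and the colour the library set. Set A and set C stay at or below 43 members, while 67 of the 78 nuclei of set B right of the dashed line at 1%, and 5 nuclei just left of it, have over 50.

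The limit of 1% did not fall in a gap of the data. Between 0.158% and 0.658% no nucleus of set B was found. Just below 1% stood 5 nuclei at 0.658%, 0.885%, 0.923%, 0.939% and 0.989% of mitochondrial-genome reads, and they had 83, 83, 79, 77 and 82 members read. Just above it, the nuclei at 1.03%, 1.08% and 1.14% had 83, 68 and 80. The other 95 mt-poor nuclei of set B had 9 to 35 members, so by this measure the 5 lay with the mt-rich nuclei. They belong to 2 labels, AiE0445h_3xC2 with 3 and AiE0391h with 2, and this bears on every comparison below that uses the limit.

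Not every mt-rich nucleus had reads from most of the members. Among mt-rich nuclei, the 34 glutamatergic ones had a median of 80.5 members (range 60 to 83) and the 26 GABAergic ones 80 (range 48 to 83). The 13 that reached the limit of neither class had a median of 43 (range 18 to 68), with a median of 2132 genes per nucleus, and their share of mitochondrial-genome reads was a median of 4.19%. Of the 11 mt-rich nuclei with 50 members or fewer, 10 were of neither class. By share of reads, the members took a median of 0.822% in the 13 nuclei of neither class, against 0.321% in mt-poor nuclei of set B. The lowest share in an mt-rich nucleus was 0.405%, within the range of 0.0960 to 1.57% in mt-poor nuclei of set B.

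Gene by gene, all 83 members with a read in set B had a higher mean log2(CPM + 1) in mt-rich than in mt-poor nuclei, with a median difference of 3.94 over the 86 members; in comparison, of 9117 genes read in at least 10% of all nuclei, 7448 were higher and the median difference was 1.09. Rplp1, of the stalk, had the largest difference: 7.24 ± 1.69 in mt-rich and 1.60 ± 2.92 in mt-poor nuclei (SD over 78 and 100 nuclei), and it was read in 97.4% and 25% of them. Rps29, a small-subunit gene, stood at 7.23 ± 1.34 and 1.96 ± 2.90, and was read in 98.7% of mt-rich and 33% of mt-poor nuclei. For Rpl38 the levels were 7.36 ± 1.93 and 2.28 ± 3.14, and the shares 94.9% and 36%. All differences of this paragraph are given as descriptions, since nuclei of 1 label are not replicates, and a pseudocount of 10 lowers the median difference to 2.06.

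Over all nuclei of set B, the other stalk genes and the small-subunit gene Rpsa had the same direction; their values by label, which differ for Rplp0, are given further on. Rplp2 was read in 85.9% of mt-rich and 29% of mt-poor nuclei, with levels of 5.96 ± 2.77 and 1.89 ± 3.04. Rplp0, the stalk's base, was read in 75.6% and 20%, with levels of 4.47 ± 2.89 and 1.52 ± 3.09. Rpsa, which is also known as the laminin receptor, was read in 87.2% and 28%, with levels of 5.28 ± 2.53 and 1.93 ± 3.23. Within the stalk the summed level of Rplp1 was 4.57 times as high in mt-rich as in mt-poor nuclei, and that of Rplp0 1.46 times.

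**Figure D2:**
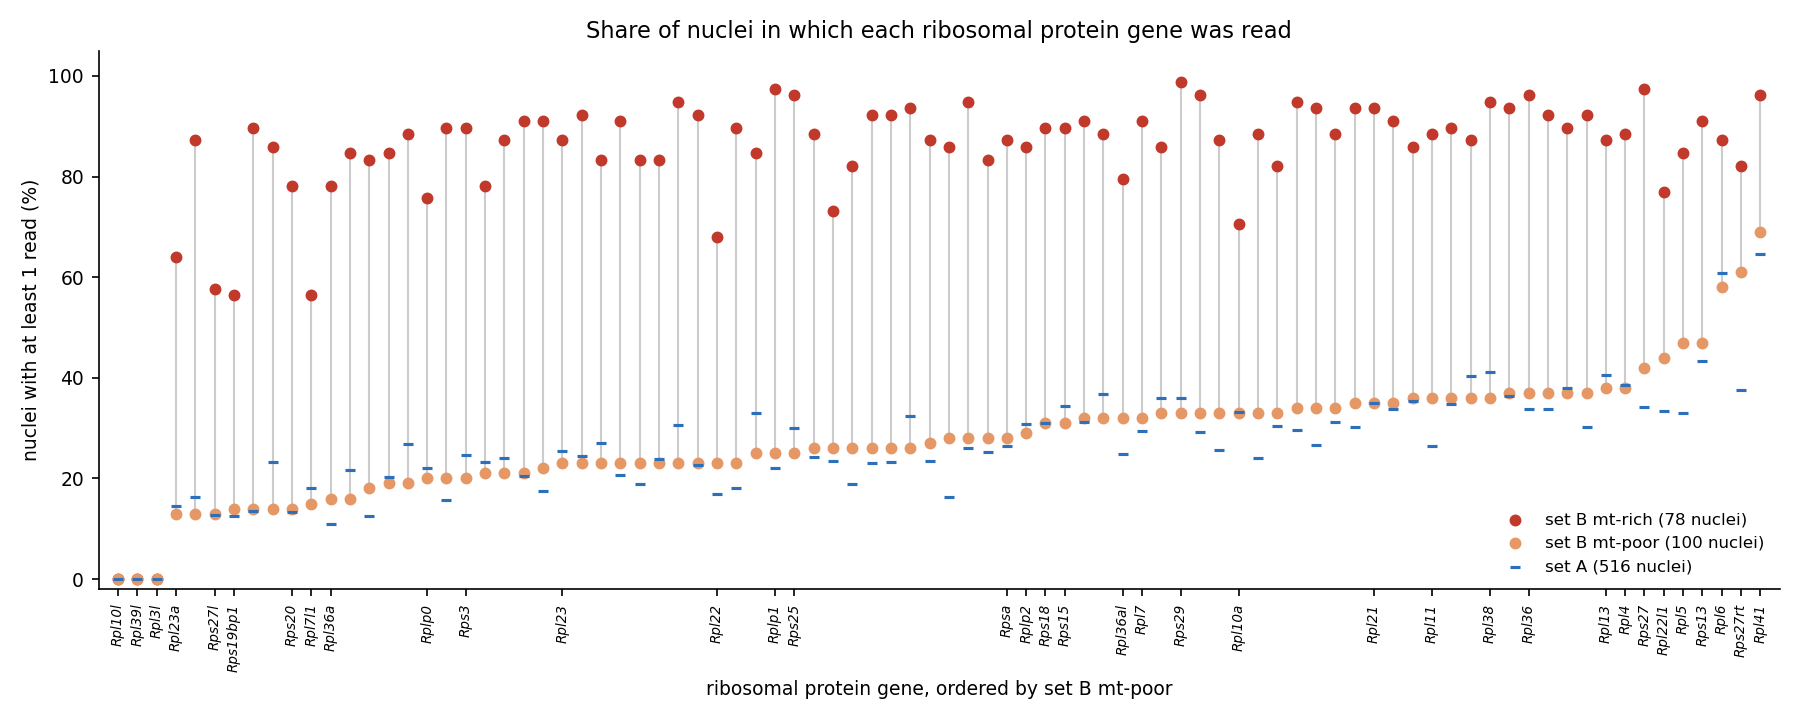
The y axis is the share of nuclei with at least 1 read (%) for each of the 86 genes, ordered along the x axis by the mt-poor nuclei of set B, with the names of members described in the text; red points are mt-rich nuclei of set B, orange points mt-poor nuclei of set B and blue bars set A. Red points lie above orange ones for 83 genes, from 56.4% to 98.7%, and Rpl10l, Rpl39l and Rpl3l stay at 0 in all 3 groups.

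The difference lay in how many nuclei had a read more than in the level where a gene was read. The median over members of the CPM in nuclei with a read was 112 in mt-rich and 114 in mt-poor nuclei. By this measure 39 members were higher and 44 lower in mt-rich nuclei. Rps29 had 167 CPM where read in mt-rich nuclei, against 51.3 in mt-poor nuclei, and Rpl38 had 241, against 69.2. In contrast, Rpl6 had 113 in mt-rich nuclei, against 226 in mt-poor nuclei, and Rplp0 had 67.3, against 207.

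For some members the share of nuclei with a read and the summed level went different ways. Rpl41 was read in 96.2% of mt-rich and 69% of mt-poor nuclei, and its summed level was also higher, 1.48 times. Rpl6 was read in 87.2% and 58%, but its summed level was 109 CPM in mt-rich and 141 CPM in mt-poor nuclei. Rpl22l1 had 53.4 and 88.01 CPM, Rpl5 had 60.5 and 79.4, and Rpl10a had 37.6 and 55.0; these were chosen after their values were seen. The order of members differed too: over the 86 members, the share of nuclei in set A had a Spearman rho of 0.44 with that in mt-rich nuclei, below the 0.87 with that in mt-poor nuclei of set B. Per kilobase of exon, mt-rich nuclei were led by Rpl38 at 449 CPM, Rplp1 at 429.9, Rpl36 at 339 and Rps29 at 303, whereas mt-poor nuclei of set B were led by Rpl41 at 129 CPM.

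Several other lists were also higher in mt-rich nuclei, given here as descriptions with no test. Of the 9117 genes read in at least 10% of all nuclei, 7448 were higher, and the median difference was 1.09. The ribosomal proteins Fau and Rack1, which the name rule leaves out, were read in 89.7% and 82.1% of mt-rich nuclei, against 22% and 37% of mt-poor nuclei. The 7 genes listed as elongation factors were all higher in mt-rich nuclei, by a median of 3.67 on the log2 scale. Among them Eef1a1 was read in 96.2% of mt-rich and 31% of mt-poor nuclei. The 24 initiation factor genes were all higher, by a median of 2.38, and 83 nuclear-encoded respiratory chain genes with a read were higher in 81 cases, by a median of 3.67. The 78 mitochondrial ribosome genes, translated in the same cytoplasm but with no part in the cytosolic ribosome, were higher in 75 cases, by a median of 1.94. Ribosome biogenesis genes, many of them acting in the nucleolus, had a median difference of 1.22, with 19 of 23 higher, near the values of all genes. The 5 nuclear-retained RNAs had a median difference of -2.26, with 4 lower and 1, Neat1, higher in mt-rich nuclei. Malat1, an abundant nuclear long noncoding RNA, made up 41436 CPM in mt-rich and 138695 CPM in mt-poor nuclei.

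Depth and the reads of some marker lists also differed between mt-rich and mt-poor nuclei of set B. For the 9117 genes read in at least 10% of all nuclei, the median share of nuclei with a read was 52.6% in mt-rich and 25% in mt-poor nuclei. That share is per gene, while the shares for marker lists below count a nucleus with a read of any marker. The median was 415536 reads and 5959 genes per nucleus in mt-rich nuclei, against 232842 reads and 2808.5 genes in mt-poor nuclei; after thinning the medians were 5402.5 and 2664 genes. Of the 6 astrocyte markers, all were read in mt-rich nuclei, where 44.9% of nuclei had a read of the list (summed level 0 to 20810 CPM, median 0), and Aldh1l1, Gfap and Aqp4 were at 0 in mt-poor nuclei, where 17% had a read (0 to 814 CPM, median 0). The 6 oligodendrocyte markers had a read in 64.1% of mt-rich nuclei (0 to 2268 CPM, median 48.8) and 39% of mt-poor nuclei (0 to 824 CPM, median 0), with none of the 6 at 0 in either. Microglia markers had a read in 3.85% of mt-rich nuclei, with Tmem119, Cx3cr1 and Csf1r at 0, and in 4% of mt-poor nuclei, with C1qa, C1qb and Cx3cr1 at 0 (0 to 869 CPM and 0 to 28.7 CPM). Oligodendrocyte precursor markers had a read in 2.56% and 1% (0 to 4777 CPM and 0 to 219 CPM), and endothelial markers in 12.8% and 10% (0 to 874 CPM and 0 to 18.5 CPM), with Kdr and Cldn5 at 0 in both. The 9 spiny projection neuron markers had a read in 75.6% of mt-rich nuclei (0 to 1991 CPM, median 78.3) and 32% of mt-poor nuclei (0 to 3826 CPM, median 0), with Adora2a and Isl1 at 0 in both and Drd2 at 0 in mt-poor nuclei. Of that list Ppp1r1b was read in 37.2% of mt-rich and 3% of mt-poor nuclei, and Rgs9 in 32.1% and 10%. Tac1 ran the other way, in 6.41% and 7%. By mean log2(CPM + 1), 6 of the 7 with a read were higher in mt-rich nuclei and 1, Tac1, was lower. Their part in the result was not tested. The medians given above for glutamatergic and GABAergic mt-rich nuclei were 80.5 and 80 members, against 19 and 24 in the mt-poor nuclei of the same classes. These classes rest on Slc17a7, Gad1 and Gad2 alone and do not leave out nuclei with reads of other markers.

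Vector labels of set B fell mostly on 1 side of the limit. The nuclei of AiE0078h, AiE0140h, AiE0452h, AiE0475m, AiE0743m_3xC2, AiE0779m and hSyn1 in this set were all mt-rich, with medians of 67 to 81 members per nucleus, and those of AiE0387m, AiE0401h, AiE0410m, AiE0447h and AiE0682h were all mt-poor, with medians of 18.5 to 24. Only AiE0390m, AiE0391h, AiE0445h_3xC2, AiE0450h and AiE0600m held at least 3 nuclei of both kinds, 26 mt-rich and 36 mt-poor in all. In these 5 labels the members took 0.948%, 1.22%, 1.06%, 1.13% and 1.09% of the summed reads of mt-rich nuclei, in the order named, against 0.327%, 0.610%, 1.17%, 0.406% and 0.264% of those of mt-poor nuclei. The share was higher in mt-rich nuclei of 4 labels and lower in those of AiE0445h_3xC2, whose 3 mt-poor nuclei are all among the 5 just under the limit. The means were 1.09% ± 0.101 and 0.555% ± 0.368 (SD, n = 5 labels).

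**Figure D3:**
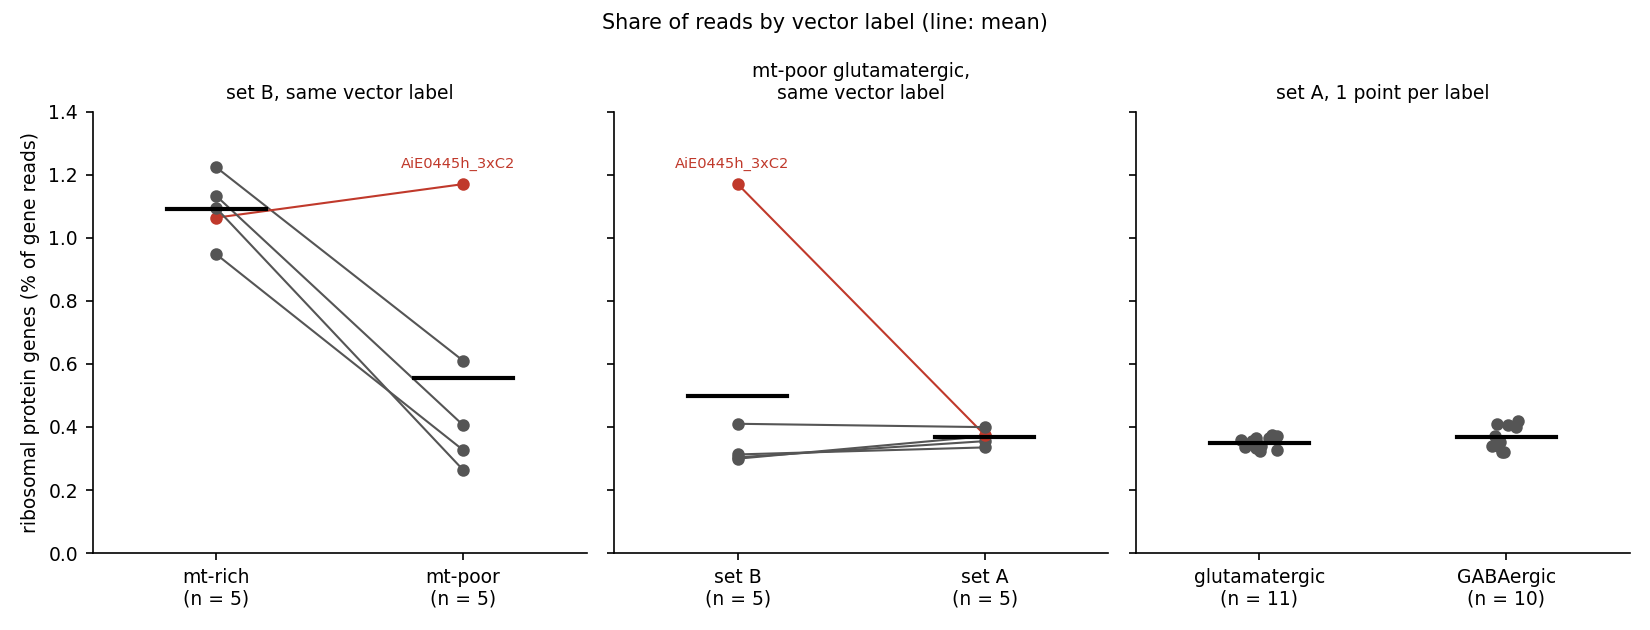
The y axis is the share of summed gene reads taken by the 86 ribosomal protein genes (%); each point is 1 vector label, black lines are means, and in the left and middle panels a line joins both values of a label. Mt-rich values, 0.948 to 1.22%, lie above mt-poor ones except in AiE0445h_3xC2, whose mt-poor nuclei at 1.17% also set it apart in set B of the middle panel, and in the right panel the class values overlap.

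With counts summed per label and the label as a block, no member passed edgeR's quasi-likelihood test with Benjamini-Hochberg adjustment at 0.05. Neither did any of the 8589 genes tested (background 0% higher and 0% lower). Of 82 members tested, 80 had a positive fold change, with a median log2 fold change of 2.01 against 0.64 over all genes, and 4 had an unadjusted p below 0.05, which 5.22% of all genes had. The mitochondrial-genome genes used to form the groups did not pass either, with a median of 7.39 over 11 tested. DESeq2 on the same sums called 5 of 82 members higher (background 5.5% higher and 1.09% lower). The mean log2(CPM + 1) of each label, tested with limma as an alternative chosen after the data were seen, called 23 of 83 members higher and none lower (background 3.68% higher and 0.0793% lower). Each of the 3 fits used the same 5 labels. The neuron class differed between the groups within some of them. In AiE0391h all 9 mt-rich nuclei were GABAergic, against 2 of 14 mt-poor nuclei, and in AiE0450h 1 of 5 mt-rich nuclei was GABAergic, against all 3 mt-poor nuclei. With glutamatergic nuclei alone, which leaves AiE0390m and AiE0600m with 6 mt-rich and 13 mt-poor nuclei, edgeR called 0 of 81 members (background 1.32% higher and 0.498% lower), 7 had an unadjusted p below 0.05, which 7.96% of all genes had, and the median log2 fold change of the members was 3.34, against 0.68 over all genes.

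Single members are shown by label in the order AiE0390m, AiE0391h, AiE0445h_3xC2, AiE0450h and AiE0600m. Rplp1 had 210.2, 287, 206, 222 and 233 CPM in mt-rich nuclei, against 29.6, 101, 257, 0 and 26.99 CPM in mt-poor nuclei. All mt-rich values lay above all mt-poor values other than that of AiE0445h_3xC2. The log2 fold change was 2.65 ± 1.27 (SE; edgeR adjusted p = 0.884), and 4.87 ± 1.22 by limma (adjusted p = 0.0233).

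The other stalk genes and Rpsa varied by label. Rplp0 had 71.4, 115, 212, 41.7 and 59.9 CPM in mt-rich nuclei, against 90.3, 92.3, 182, 52.4 and 0 CPM in mt-poor nuclei, and it was lower in mt-rich nuclei of AiE0390m and AiE0450h. Rplp2 had 123, 202, 128, 163 and 172 CPM in mt-rich nuclei, against 25.7, 79.3, 274, 104.7 and 0 CPM in mt-poor nuclei. Rpsa had 138, 147, 73.5, 73.6 and 67.8 CPM in mt-rich nuclei, against 0, 68.5, 72.4, 0 and 121 CPM in mt-poor nuclei. Each of Rplp2 and Rpsa was higher in mt-rich nuclei of 4 labels. The log2 fold changes of Rplp0, Rplp2 and Rpsa were 0.88 ± 1.32, 1.84 ± 1.31 and 2.38 ± 2.08, with edgeR adjusted p of 0.897 to 0.9501.

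Rps29 had 266, 257, 201, 319.6 and 166 CPM in mt-rich nuclei, against 22.1, 79.8, 185, 17.9 and 42.0 CPM in mt-poor nuclei. It was higher in mt-rich nuclei of all 5 labels. Rpl38, which holds the pyrimidine run shown above, had 203, 298, 256, 229 and 231 CPM in mt-rich nuclei, against 19.9, 81.0, 312, 71.5 and 47.2 CPM in mt-poor nuclei, and AiE0445h_3xC2 again ran the other way. Rpl23, a large-subunit gene that also binds the p53 regulator Mdm2, had 299, 272, 330.3, 114 and 305 CPM in mt-rich nuclei, against 26.6, 82.0, 213, 0 and 0.750 CPM in mt-poor nuclei. It was higher in mt-rich nuclei of all 5 labels and was called by DESeq2 with a log2 fold change of 4.08 ± 1.08 (adjusted p = 0.00904), while edgeR gave 4.00 ± 1.47 (adjusted p = 0.884).

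Rpl6 did not follow. It had 102, 121, 119.8, 219.7 and 125 CPM in mt-rich nuclei, against 127, 156, 119.3, 276 and 19.5 CPM in mt-poor nuclei, and 3 of 5 labels were lower in mt-rich nuclei. Rpl41 had 376, 203, 181, 438 and 246 CPM in mt-rich nuclei, against 202, 102, 277, 92.0 and 172 CPM in mt-poor nuclei. It was higher in 4 labels and lower in AiE0445h_3xC2. Rps29 and Rpl23 were chosen after their values were seen, because no member passed the edgeR test.

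The choice of limit and of labels changed how many members passed. With the limit at 0.5%, which moves the 5 nuclei and leaves out AiE0445h_3xC2, edgeR called no member (background 0.233% higher and 0.0467% lower). Of 81 members, 29 had an unadjusted edgeR p below 0.05, which 10.1% of all genes had. The median log2 fold change of the members was 3.31, against 0.99 over all genes. On the limma scale 72 of 83 were called higher (background 18% higher and 0.381% lower). With the limit at 2%, 7 labels entered, with 30 nuclei above it and 40 below it. Nuclei with 1% to 2% then stood in the lower group. In that fit the median log2 fold change of the members was -0.13, against -0.23 over all genes. None of 82 members was called (background 0.0116% higher and 0% lower). With all 12 labels that hold mt-rich and 10 that hold mt-poor nuclei of set B and no block, edgeR called 17 of 83 members higher and none lower (background 3.61% higher and 2.06% lower), and limma 80 of 83 (background 41.5% higher and 2.09% lower). In that wider fit 5 labels stand in both groups and the rest differ in their vector, so the kind of nucleus and the vector cannot be told apart there. The edgeR calls included Rplp1 (log2 fold change 2.17 ± 0.60, adjusted p = 0.0275), Rps29 (2.55 ± 0.51, adjusted p = 0.00363), Rps25 (2.15 ± 0.49, adjusted p = 0.00922) and Rpl38 (1.98 ± 0.47, adjusted p = 0.0115). Restricted to glutamatergic and GABAergic nuclei, this fit called 14 of 83 members higher (background 3.45% higher and 2.66% lower).

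The same edgeR fit over all labels, with 3.61% of all genes called higher and 2.06% lower, was read for the other lists. Of 7 elongation factor genes it called Eef1a2, the form of neurons and muscle, and of 24 initiation factor genes Eif3k and Eif4g2. Of 78 mitochondrial ribosome genes it called Mrps18c, and of 8 further transcripts known for a TOP tract it called Gas5 lower (log2 fold change -1.23, adjusted p = 0.0141) and none higher. Of 22 ribosome biogenesis genes it called Nop56 lower, and of 18 abundant cytoplasmic messenger RNAs 11 higher, among them Tmsb4x and Fth1. Of 77 respiratory chain genes it called 28 higher and 1 lower, among them Ndufa13, Uqcr10, Cox8a and Cox7a2, and of 4 nuclear-retained RNAs 3 lower, Snhg11, Malat1 and Meg3. The astrocyte marker Slc1a3 was also called higher. Whether these lists differ from the ribosomal protein genes was not tested.

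Between set B and set A, mt-poor glutamatergic nuclei did not differ by an edgeR call. The comparison of mt-poor glutamatergic nuclei asked whether set B differs from set A beyond the mt-rich nuclei, in 5 labels with 49 nuclei of set B and 85 of set A. The members took 0.313%, 0.299%, 0.304%, 1.17% and 0.410% of reads in set B for AiE0387m, AiE0391h, AiE0401h, AiE0445h_3xC2 and AiE0682h, against 0.335%, 0.371%, 0.355%, 0.375% and 0.400% in set A. Only AiE0445h_3xC2 stood apart. No member of 82 and no gene of 9388 passed edgeR (background 0%), 0 members had an unadjusted p below 0.05, which 1.29% of all genes had, and limma also called none. DESeq2 called 1 member lower in set B (background 0.98% lower and 0.405% higher), Rps3, which had 0, 0, 45.8, 192 and 0 CPM in set B, against 10.5, 178, 40.9, 48.2 and 151 CPM in set A (log2 fold change -6.27 ± 1.58, DESeq2 adjusted p = 0.0151). It was lower in set B for 3 labels and higher for 2, so the groups overlapped. The median log2 fold change of the members was 0.20, against -0.22 over all genes, and without AiE0445h_3xC2 it was -0.23, against -0.08.

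Between neuron classes of set A, ribosomal protein genes took a like share of reads, and GABAergic nuclei had reads from more of them. The members took a median of 0.349% of reads in 243 glutamatergic nuclei (SD 0.109) and 0.351% in 219 GABAergic nuclei (SD 0.117). A glutamatergic nucleus had a median of 21 members read (SD 5.22) and a GABAergic nucleus 25 (SD 6.46); after thinning to 100000 reads, which left out 2 glutamatergic nuclei, the medians were 20 and 24. The same order held in set C, with 20 and 24 members, and in the mt-poor nuclei of set B, with 19 and 24. Glutamatergic nuclei also had fewer genes in all, a median of 2642 against 2992, and 2483 against 2784 after thinning. The part of that in the count of members was not tested.

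By vector label, 11 labels with at least 10 glutamatergic nuclei had medians of 18 to 24 members per nucleus, and 10 labels with at least 10 GABAergic nuclei had medians of 22 to 28. The median share of reads per label ran over 0.313 to 0.390% for glutamatergic nuclei, lowest in AiE0078h and highest in AiE0447h, and over 0.306 to 0.388% for GABAergic nuclei, lowest in AiE0600m and highest in AiE0390m. The ranges of both classes overlapped. Most labels held 1 class, so class and vector label cannot be told apart: AiE0743m_3xC2 alone had at least 10 nuclei of each class, with medians of 18.5 members in 14 glutamatergic and 23 in 15 GABAergic nuclei.

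Member by member, 66 of 86 were read in a smaller share of glutamatergic than of GABAergic nuclei and 17 in a larger one, and 65 and 18 after thinning. The same counts over all genes are not given here. On the mean log2(CPM + 1) of each label, the median difference was -0.20 for the members and -0.23 over 8529 genes. By that measure the members moved with the genes at large. Rpl21 differed most, in 27.98% of glutamatergic (22.4 to 34.1%) and 44.7% of GABAergic nuclei (38.05 to 51.6%). Rpsa was read in 20.99% and 33.3%. Rpl11, a large-subunit gene known in mammals for binding Mdm2, ran the other way, in 29.2% of glutamatergic (23.6 to 35.4%) and 22.8% of GABAergic nuclei (17.4 to 28.97%). Rpl41 was read in 65.4% and 62.6%. These 4 members were chosen after their values were seen.

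**Figure D4:**
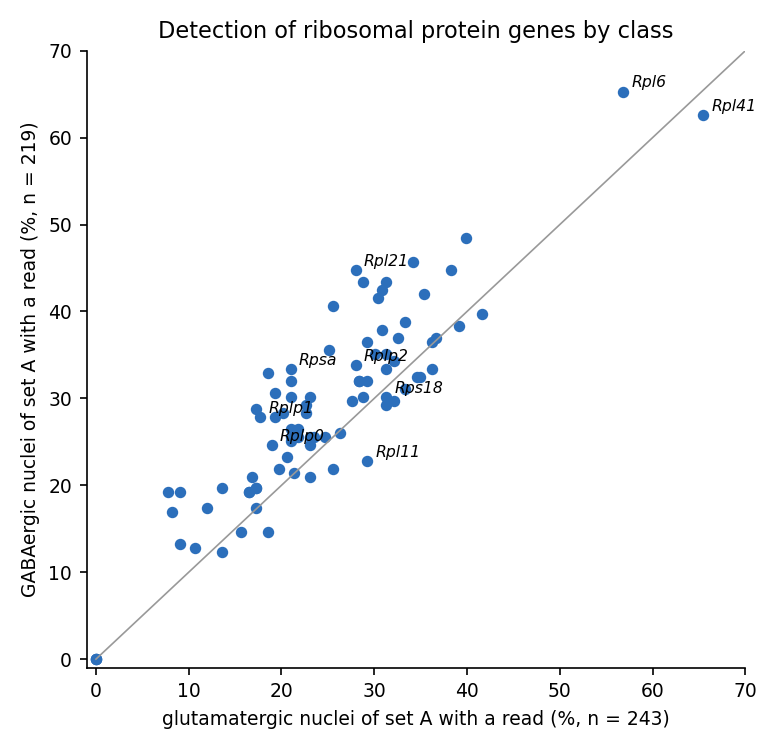
Each point is 1 of the 86 ribosomal protein genes; the x axis is the share of glutamatergic nuclei of set A with a read (%), the y axis that of GABAergic nuclei, and the line marks equal shares. Most points lie above the line, 66 of 86, with Rpl21 farthest from it, and Rpl11 and Rpl41 lie below it.

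Counts summed per label gave no call on the members. The comparison took 11 glutamatergic and 10 GABAergic sums over 221 and 207 nuclei, and edgeR called 0 of 83 members, while it called 4.81% of 11032 genes higher and 3.69% lower in glutamatergic nuclei. Among the members 3 had an unadjusted p below 0.05, which 18.5% of all genes had. The median log2 fold change of the members was 0.00 (41 positive, 42 negative), against -0.05 over all genes. The share of reads averaged 0.350% ± 0.0186 in glutamatergic and 0.367% ± 0.0385 in GABAergic sums (SD, n = 11 and 10 labels).

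The members nearest to a call were 2 higher in glutamatergic nuclei. Rps18, a small-subunit gene, had 32.2 to 133 CPM over the 11 glutamatergic labels with a median of 89.9, against 16.1 to 69.6 with a median of 52.0 over the 10 GABAergic labels. The groups overlapped, with a log2 fold change of 0.99 ± 0.32 (SE; edgeR adjusted p = 0.0543). It passed without the label AiE0078h (edgeR adjusted p = 0.0279) or DLX2.0 (adjusted p = 0.0466), and leaving out each other label gave an adjusted p of 0.0508 to 0.115. Rpl11 had 25.97 to 93.9 CPM with a median of 50.8 in glutamatergic labels, against 5.31 to 47.7 with a median of 22.6 in GABAergic labels, and a log2 fold change of 1.202 ± 0.43 (adjusted p = 0.0862). DESeq2 called both, with adjusted p of 0.0137 and 0.0174 (background 6.67% higher and 5.78% lower), and with no filter on low counts edgeR called 1 of 83 higher (background 10.8% higher and 11% lower), and in the nuclei of sets B and C the fold change of Rpl11 was -0.15.

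The stalk genes and Rpsa overlapped between classes. Rplp0 had 24.9 to 77.7 CPM in glutamatergic and 21.7 to 89.0 in GABAergic labels, and a log2 fold change of -0.19 ± 0.34. Rplp1 had 0 to 35.8 and 3.94 to 64.1 CPM, and -0.63 ± 0.66. Rplp2 had 9.78 to 57.5 and 14.9 to 71.3 CPM, and -0.17 ± 0.41. Rpsa had 21.4 to 126 and 30.2 to 123 CPM, and -0.12 ± 0.37. None of the 4 passed, with edgeR adjusted p of 0.74 to 0.939.

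On the mean log2(CPM + 1) of each label, limma called 10 of 83 members lower in glutamatergic nuclei and none higher (background 21.4% lower and 9.47% higher). They included Rpl21, Rps27l, Rpl18, Rplp1 and Rpl30. Rpl21 had a difference of -1.19 ± 0.36 (adjusted p = 0.00742). Of related lists, 2 of 8 further TOP transcripts were called higher in glutamatergic nuclei by edgeR, which called 4.81% of all genes higher and 3.69% lower: Nap1l1, a nucleosome assembly gene (log2 fold change 0.82 ± 0.16, adjusted p = 0.000672), and Tpt1, which encodes the translationally controlled tumour protein (0.93 ± 0.22, adjusted p = 0.0062). None of 7 elongation factor, 24 initiation factor, 23 ribosome biogenesis or 78 mitochondrial ribosome genes was called by edgeR, and 18 of 78 respiratory chain genes were called lower. On the limma scale Nap1l1 and Tpt1 were called higher too, but Npm1 (-1.48) and Gas5 (-0.88) of the same TOP list were called lower, as were Eef2, Eef1g and Eef1a1 of the 7 elongation factor genes.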

How the data were processed

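Single nuclei were sorted and their polyadenylated RNA was amplified with SMART-Seq v4 and made into libraries with Nextera XT, per the labels' protocols. The authors deposited raw read counts per gene, with no molecular identifiers; PCR copies were therefore counted as separate reads. STAR 2.7.2a and mm10 are named in the submitters' processing notes; the read counter, the annotation and the handling of introns, strand and multi-mapping reads are not named in the sources used here. Of the table's columns, 1704 belong to no sample described here and were not used. Total gene counts ran from 8712 to 666436 per nucleus (median 290674), and 16 nuclei under 50000 reads or 1000 genes were left out.

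Levels are CPM, counts scaled here to a common total of gene reads. Shares of nuclei have 95% exact Clopper-Pearson intervals, which like the limit of 3 counts for a count of 0 cover counting error only. For tests, counts were summed per vector label, over at least 10 nuclei (class comparison) or 3 nuclei (the others), and fitted over all genes with edgeR 4.0.16 (TMM scaling, quasi-likelihood test, Benjamini-Hochberg adjustment at 0.05; R 4.3.3), with the vector label as a block where both groups held the same labels. DESeq2 1.42.0 and, chosen after seeing the data, limma 3.58.1 on the mean log2(CPM + 1) per label were alternatives, beside other scaling, filters, limits and leaving out each label. The main edgeR fit of each comparison was also run on simulated data with known changes, and the alternatives were not. Python 3.11.15 with numpy 2.4.6, scipy 1.17.1, pandas 2.3.3 and matplotlib 3.10.9 made the summaries.

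The members and the other gene lists were chosen with earlier results of these data known. Members were to be named by role (stalk genes and Rpsa), by passing the edgeR test, and as the 5 read in the largest and the smallest shares of nuclei; no member passed that test, and others named were chosen after their values were seen. Values of some single members are not reported here.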

Additional observations from a re-analysis of the deposited data

Results flagged for a closer look

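Of 25 groups of 4 to 10 label values examined with Dixon's gap test, 3 held a value set apart from the rest, and chance sets apart about 1 in 20. All 3 were the same sum, the 3 mt-poor glutamatergic nuclei of AiE0445h_3xC2 in set B. Its ribosomal protein genes took 1.17% of reads, with the next label of set B at 0.410%. Rplp1 stood at 256.8 CPM, with the next label at 44.9 CPM, and Rplp2 at 274.4 CPM, with the next at 35.1 CPM. These 3 nuclei had 77 to 82 members read and 0.923 to 0.989% of mitochondrial-genome reads, just under the limit of 1%.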

How the results depend on the processing

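No paired analysis was possible because the numbers in the labels only name nuclei within a vector label and tie no nuclei of different groups; the block on the vector label is another matter and is part of the comparisons above. For the glutamatergic against GABAergic comparison, the count of members called higher was 0 by edgeR, 2 by DESeq2, 1 with no filter on low counts and 0 to 1 with each label left out in turn; the count called lower was 0, and 10 by limma. For mt-rich against mt-poor nuclei, the count called higher was 0 by edgeR, 5 by DESeq2, 23 by limma, 72 by limma with the limit at 0.5%, 80 by limma over all labels, 17 by edgeR over all labels with no block and 14 in glutamatergic and GABAergic nuclei alone. For set B against set A, DESeq2 called 1 member lower, and edgeR 0. The median mt-rich minus mt-poor difference was 3.94, and 2.06 with a pseudocount of 10. In sets B and C the class fold changes of Rpl11 (-0.15), Rplp0 (0.41), Rplp1 (0.62), Rplp2 (0.87) and Rpsa (0.11) had the opposite sign to set A, and without hI56i that of Rpsa was 0.034 (range over labels left out -0.32 to 0.034). The limit at 2% changed the labels compared and counted nuclei of 1% to 2% as mt-poor. With it Rplp0 (-2.06), Rplp2 (-0.45) and Rpl23 (-0.57) turned to negative in mt-rich nuclei. The cause of these changes was not tested. Thinning to 100000 reads left out 5 nuclei, all of set A. After thinning, the median share of nuclei per member in set A was 24.9%, and 26.2% before it.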
